A study of Mus musculus with 4 samples.

Results

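Genes for collagens, laminins, collagen-crosslinking enzymes, matrix proteases with their inhibitors, and galectins were examined in mouse liver with a removed or altered gene for the selenocysteine tRNA. Members were chosen by symbol in the platform annotation. They are the collagen chains (Col), laminin chains (Lam), lysyl oxidases (Lox), matrix metalloproteinases (Mmp), tissue inhibitors of metalloproteinases (Timp), the numbered Adamts proteases and the galectins (Lgals). The rule gave 41 of the 9285 genes measured: 18 collagen chains, 2 laminin chains, 2 lysyl oxidases, 5 metalloproteinases, 2 of their tissue inhibitors, 5 Adamts proteases and 7 galectins. All 41 had a value in every comparison, and no filter was applied.

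Trsp is the gene for the tRNA that inserts selenocysteine into selenoproteins. Livers came from B6/FVB males aged 7 to 8 weeks and fed a diet sufficient in selenium, and mutant animals were compared with wild-type littermates (Trsp). The knockout, DTrsp, had no Trsp in the liver. The other lines carried transgenes: A34, 2 copies with T34 of the tRNA changed to A34; G37L, 2 copies with A37 changed to G37; and G37H, 16 copies with that same A37 change. Whether transgenic livers kept their own Trsp, and what drove its removal in DTrsp, is not stated in the labels. The labels give 3 animals for G37H and 4 for each other line, and each value is the authors' average. Judged by their decimals, described after the probes, some averages may rest on fewer arrays than these. Animals cannot be told apart in these data, so their spread is unknown, no test was possible, and every comparison below is a description.

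The extracellular matrix of liver is thin. Type IV collagen and laminin lie along the sinusoids and under bile ducts and vessels, while fibrillar collagens of types I and III lie around the portal tracts and build the scar when hepatic stellate cells become myofibroblasts. Lysyl oxidases crosslink collagen and elastin, metalloproteinases and Adamts proteases cut matrix proteins, Timp proteins block the metalloproteinases, and galectins are small lectins that bind galactose-containing sugars on matrix and cell-surface glycoproteins.

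Values are read as log2 ratios of mutant over wild type (the base of the logarithm is not stated), with the direction taken from the dye labels with wild type in Cy3 and mutant in Cy5. It is likely rather than stated, and a turned ratio would swap higher and lower throughout. Over all genes the column medians in DTrsp, A34, G37L and G37H were 0.16, 0.07, -0.11 and -0.11. Hepatocyte markers lay higher, with medians of 0.57, 0.34, 0.47 and 0.48 in the same order, so a value above 0 but under these medians lies below 0 relative to hepatocyte markers. The only spread available is that between probes of the same gene, with a pooled SD of 0.48, 0.35, 0.37 and 0.38 in the same order, which is not a spread between animals. Without signal levels no gene could be placed above or below background, levels of different genes could not be compared, and the liver origin of the samples could not be checked from marker levels. Such ratios from whole liver cannot tell fewer cells of a type from less RNA per cell.

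The median of the matrix and galectin genes relative to that of all genes was between -0.11 and 0.06 in the 4 comparisons, and a few single genes stood apart. Of the 41, 33 were within 2-fold of wild type in all 4 mutant livers. At least 2-fold apart were 6 in a single comparison and 2 in a pair of comparisons. The matching shares of all genes across comparisons are not given here, so these counts are not read as a result about the members. In DTrsp, the galectin gene Lgals1 and the basement membrane collagen Col4a2 were at least 2-fold higher (2 of 41, 4.88%, against 3.27% of all genes). Lgals3 was at least 2-fold lower (1 of 41, 2.44%, against 1.62%). In A34, no member was 2-fold apart in either direction, against 1.40% of all genes higher and 0.452% lower. In G37L, no member was at least 2-fold higher, against 2.51% of all genes, and Loxl2, Lgals4, Col5a3 and Mmp13 were at least 2-fold lower (4 of 41, 9.76%, against 3.96%). In G37H, Loxl2 was at least 2-fold higher (1 of 41, 2.44%, against 2.78%), and Col11a2 and Col5a3 were at least 2-fold lower (2 of 41, 4.88%, against 3.10%). At 2-fold, counts of 0 to 4 genes among 41 do not set the group apart from these shares. At 1.5-fold, 8 members were lower in DTrsp (19.5%, against 6.96% of all genes) and 12 in G37L (29.3%, against 15.3%). In A34 2 were lower (4.88%, against 2.65%) and in G37H 6 (14.6%, against 13.1%). Members higher at 1.5-fold are given under processing. Which genes are counted at 2-fold also depends on the centring. With each column centred on the median of all genes, 2 members were higher and 4 lower in DTrsp, against 1.85% and 2.79% of all genes. In A34 0 were higher and 0 lower, against 1.14% and 0.614%, in G37L 2 and 3, against 3.24% and 2.72%, and in G37H 2 and 2, against 3.68% and 1.96%. The added genes were Adamts7, Col11a2 and Col7a1, lower in DTrsp, and Col4a1, higher in both G37 livers, with Col4a2 in G37L, while Mmp13 in G37L was no longer counted. Centred on hepatocyte markers, 1 member was higher in DTrsp and 0 in A34, G37L and G37H, against 0.679%, 0.366%, 0.829% and 0.743% of all genes. In the same order 12, 2, 12 and 7 members were lower, against 11.2%, 1.86%, 18.2% and 16.7%.

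The 41 members had medians of 0.05, 0.09, -0.05 and -0.10 in DTrsp, A34, G37L and G37H. Relative to the medians of all genes they were -0.11, 0.02, 0.06 and 0.02, and relative to hepatocyte markers -0.51, -0.25, -0.52 and -0.58. In DTrsp, 14 of the 41 lay above the median of all genes and 27 below it, and in A34, G37L and G37H 21 lay above.

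**Figure D1:**
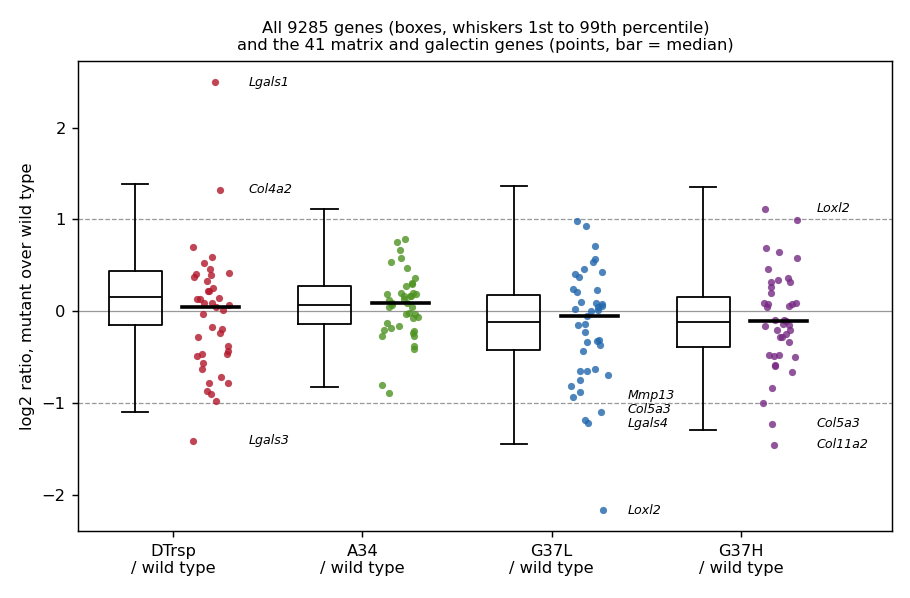
Log2 ratios of mutant over wild type in the 4 comparisons, with boxes for all 9285 genes (line at the median, box from the lower to the upper quartile, whiskers at the 1st and 99th percentiles) and points for the 41 matrix and galectin genes, spread sideways at random, with a bar at their median. Dashed lines mark 2-fold. The bars sit between -0.10 and 0.09, and names, moved apart where they would overlap, give the members at least 2-fold apart.

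**Figure D2:**
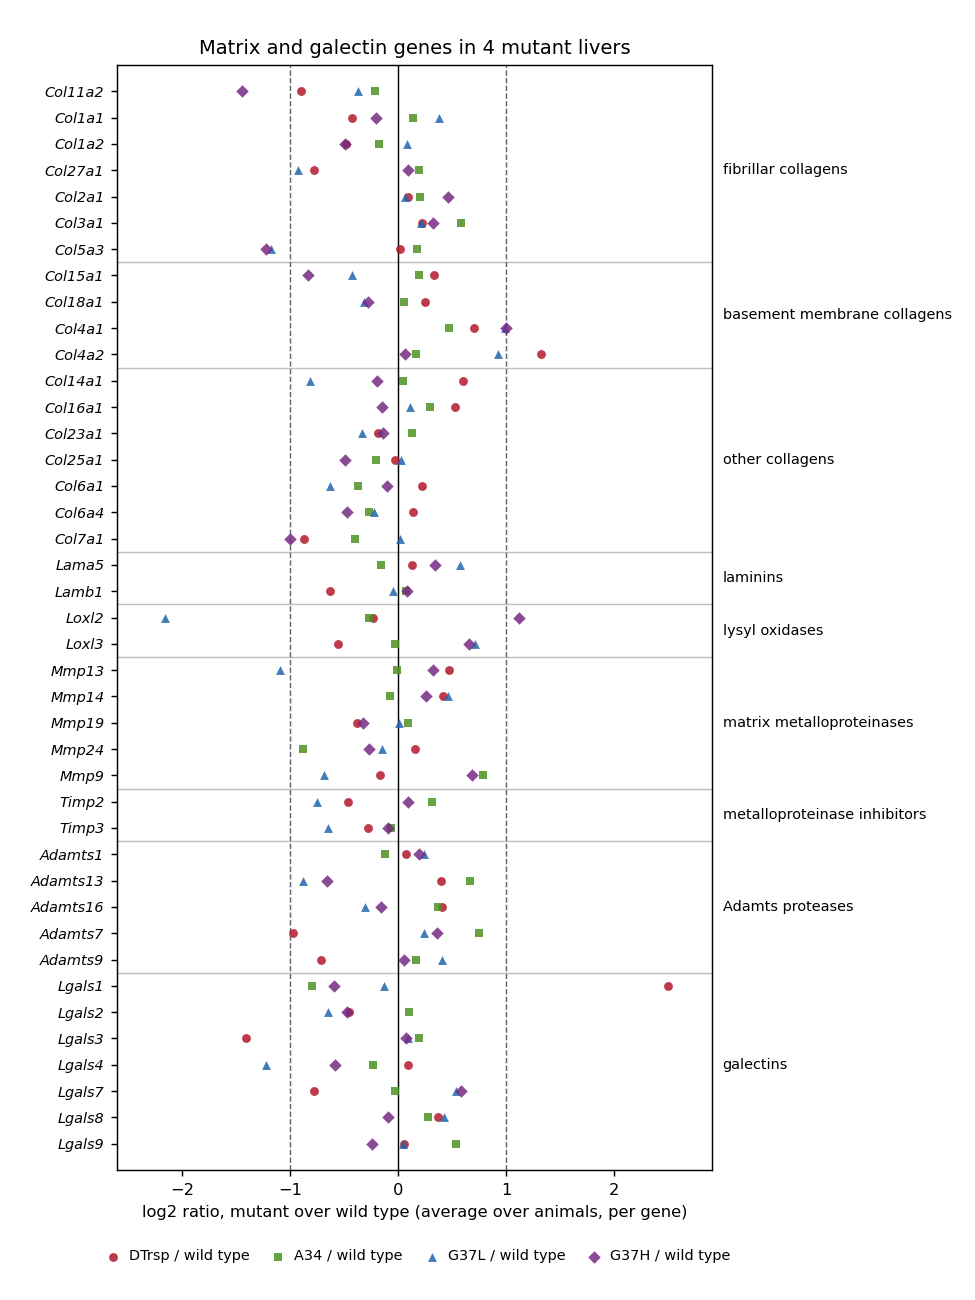
Log2 ratio of each of the 41 genes in DTrsp, A34, G37L and G37H, each point being the authors' average over animals and, where a gene has several probes, over probes. Dashed lines mark 2-fold. The points farthest out are Lgals1 at 2.49 in DTrsp and Loxl2 at -2.16 in G37L.

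Among basement membrane collagens, the type IV chains lay above 0 in all 4 comparisons. Relative to hepatocyte markers Col4a1 stayed above 0 in all 4, and Col4a2 was on the other side in A34 and G37H. Col4a1 and Col4a2 encode the chains that form the common type IV network. Col4a1 (gene identifier 12826) was at 0.70, 0.47, 0.99 and 0.999 in DTrsp, A34, G37L and G37H, both G37 values being just under 2-fold. Col4a2 (gene identifier 12827) was at 1.32 in DTrsp, a 2.50-fold ratio and rank 110 from the top of 9285 genes, at 0.16 in A34, at 0.93 in G37L and at 0.06 in G37H. The chains thus lay near each other in G37L, while in DTrsp Col4a2 was the higher and in G37H Col4a1. Each has 1 probe. Their values in G37H (0.999 against 0.06) lay farther apart than the median gap of 0.30 over genes with 2 probes. They lay nearer each other than the 2 probes of Col2a1 there, at -0.34 and 1.25.

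Col4a1 and Col4a2 are neighbours transcribed in opposite directions from a shared region, shown here because their ratios share a sign in every comparison. In RefSeq (GRCm38.p6) their annotated starts lie 21 bases apart on opposite strands, and the promoter windows, from 250 bases before to 50 after a start, share 78 bases. Each window is printed 5′ to 3′ on the strand of its gene. The Col4a1 window is chr8:11312777-11313076 on the minus strand and the Col4a2 window chr8:11312555-11312854 on the plus strand. Capitals mark motif matches on either strand. A GC box is spelled GGGCGG. The antioxidant response element core is spelled TGACNNNGC, and the CCAAT box is named by its letters. The motifs searched do not overlap each other in these windows, and a match on the opposite strand reads as the reverse complement.
Col4a1: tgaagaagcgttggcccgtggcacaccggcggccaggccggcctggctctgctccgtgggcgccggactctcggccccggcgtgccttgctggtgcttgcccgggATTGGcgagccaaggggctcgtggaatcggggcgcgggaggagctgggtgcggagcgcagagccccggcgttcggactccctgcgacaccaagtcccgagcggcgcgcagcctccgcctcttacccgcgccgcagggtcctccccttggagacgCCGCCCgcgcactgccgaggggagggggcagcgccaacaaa
Col4a2: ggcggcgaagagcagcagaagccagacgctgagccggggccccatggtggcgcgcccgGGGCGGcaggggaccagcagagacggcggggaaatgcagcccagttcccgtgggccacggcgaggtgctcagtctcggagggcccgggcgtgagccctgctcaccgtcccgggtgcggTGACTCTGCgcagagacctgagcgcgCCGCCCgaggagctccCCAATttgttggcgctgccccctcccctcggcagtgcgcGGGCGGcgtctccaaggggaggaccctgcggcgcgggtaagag
The Col4a1 window holds 37 CpG dinucleotides, 1 GC box and 1 CCAAT box, and the Col4a2 window 33 CpG dinucleotides, 3 GC boxes, 1 CCAAT box and 1 match to the antioxidant response element core. The GC box at base 260 of the Col4a1 window and that at base 258 of the Col4a2 window are the same bases, read from either strand. A match is a description of letters and not evidence of a bound site.

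Windows were found for 31 of the 41 genes, 32 windows in all. The windows they are set against were not limited to the genes measured here. GC boxes were in 24 of the 32 (75%), against 35.7% of all 32851 windows in the table, and CCAAT boxes in 15 (46.9%), against 37.4%. The antioxidant response element core was in 5 (15.6%), those of Col4a2, Col7a1, Lgals7, Mmp24 and Timp2, against 12.4%. A TATA box (TATAAA) was in 4 (12.5%), those of Adamts1, Col11a2, Col3a1 and Mmp13, against 13.6%, and an AP-1 site (TGANTCA) in 2 (6.25%), those of Col6a1 and Mmp13, against 7.81%. Member windows were also richer in CpG, with a median of 16 per window against 7 over all windows, and GC boxes themselves contain CpG.

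The other basement membrane collagens lay on the opposite side of 0 in the G37 livers from Col4a1. Col15a1 was at 0.33, 0.19, -0.43 and -0.83 in DTrsp, A34, G37L and G37H. Col18a1, the source of the fragment endostatin, was at 0.25, 0.05, -0.32 and -0.28 in the same order. Its G37H value is the mean of probes at -0.83 and 0.28, so 1 of them lay on the side of Col4a1. In DTrsp all 4 basement membrane collagens were above the median of all genes, and the class median was 0.52 (0.36 relative to all genes and -0.05 relative to hepatocyte markers). Liver endothelial markers, from cells that contribute to this matrix, had a median of 0.36 in DTrsp (0.21 relative to all genes and -0.20 relative to hepatocyte markers). There 14 of 20 lay above the median of all genes, and the range was -0.47 to 0.98. At least 2-fold apart were 0 of 20. In A34, G37L and G37H, beside Col4a1 at 0.47, 0.99 and 0.999, the medians of these markers were 0.19, -0.06 and -0.16. Relative to all genes these marker medians were 0.11, 0.05 and -0.04. Their part in the collagen values was not tested.

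Fibrillar collagens tended to lie below the median of all genes in DTrsp. There 6 of the 7 were below it, and the class median was -0.43 (-0.59 relative to all genes), with 0 of 7 at least 2-fold apart. Type I collagen, the main scar collagen, was represented by both of its chains. Col1a1 was at -0.43, 0.14, 0.38 and -0.20 in DTrsp, A34, G37L and G37H, and Col1a2 at -0.49, -0.18, 0.08 and -0.49. Col3a1, the type III chain, was above 0 in all 4, at 0.22, 0.58, 0.21 and 0.32, but relative to hepatocyte markers only in A34. Its 2 probes lay on opposite sides of 0 in G37L, at -0.05 and 0.48, and in G37H, at -0.10 and 0.74. As deposited, none of these 3 scar-forming chains was 2-fold apart in any of the 4 livers. Relative to hepatocyte markers, Col1a1 was at -0.996 and Col1a2 at -1.05 in DTrsp.

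Stellate cell and myofibroblast markers tended to lie on the same side of the median of all genes as the fibrillar class in DTrsp. Their median was -0.11 (-0.27 relative to all genes), with 12 of 18 below the median of all genes and a range of -1.06 to 0.49. The lowest were the transcription factor Hand2 at -1.06, Rgs5 at -0.997 and the smooth muscle actin Acta2 at -0.75. Of the 18, 8 were above 0, the highest being Pdgfra at 0.49, Myl9 at 0.43 and Angptl6 at 0.37. Over the 15 markers with 1 probe the median was 0.05, above 0 but under the 0.16 of all genes. At least 2-fold lower was 1 of 18 (5.56%, against 1.62% of all genes), and 0 were higher, against 3.27%. Their part in the collagen values was not tested.

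The minor fibrillar chains gave the values farthest from 0 in the class. Col5a3 (gene identifier 53867), a type V chain, was at 0.02 in DTrsp and 0.17 in A34 but at -1.18 in G37L and -1.22 in G37H, 2.26-fold and 2.33-fold lower. As deposited, it was the only member at least 2-fold apart in the same direction in 2 comparisons. Col11a2 (gene identifier 12815), a type XI chain best known from cartilage, was below 0 in all 4, at -0.89, -0.22, -0.37 and -1.45 in DTrsp, A34, G37L and G37H. Col27a1 was at -0.78 in DTrsp and -0.93 in G37L and at 0.20 and 0.09 in A34 and G37H. Col2a1, the main cartilage collagen, was at 0.09, 0.20, 0.06 and 0.46. Whether the G37L and G37H comparisons share wild-type animals is unknown here, so the like values of Col5a3 in them are not counted as a repeat.

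The remaining collagens were all within 2-fold of wild type as deposited. In G37H all 7 were below 0 and 6 of 7 below the median of all genes, with a class median of -0.20, or -0.08 relative to all genes. Col7a1, the anchoring fibril collagen of skin, was lowest at -0.996 in G37H, just under 2-fold, and was at -0.87 in DTrsp, -0.40 in A34 and 0.02 in G37L. Col14a1, which decorates fibrils, was highest of the class in DTrsp at 0.60 and lowest in G37L at -0.81. Col16a1 was at 0.53 in DTrsp and highest of the class in A34 at 0.30. Col6a1, a chain of the beaded type VI filaments, was at 0.22, -0.37, -0.63 and -0.10 in DTrsp, A34, G37L and G37H. The other three, Col6a4, Col23a1 and Col25a1, lay between -0.49 and 0.14.

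Of the laminins only Lama5 and Lamb1 were measured, so the subunits of the laminin trimers cannot be followed as a set. Lama5 was at 0.13, -0.16, 0.57 and 0.34 in DTrsp, A34, G37L and G37H. Lamb1 was at -0.63, 0.07, -0.05 and 0.08. Neither was 2-fold apart anywhere as deposited.

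Loxl2 (gene identifier 94352), which crosslinks collagen and elastin, had opposite values in the livers that carry the same altered tRNA at different copy number. It was at -2.16 in G37L, 4.47-fold lower and the 8th lowest of 9285 genes, and at 1.12 in G37H, 2.17-fold higher. In DTrsp it was at -0.24 and in A34 at -0.27, smaller in size than the SD between probes. That SD comes from genes with several probes and is not a spread between animals. Its relative Loxl3 was at 0.71 in G37L and 0.65 in G37H, at -0.56 in DTrsp and at -0.03 in A34. Thus in G37H both enzymes were above 0, and in G37L they lay on opposite sides. Loxl2 has 1 probe, and its averages in G37L and G37H were among those whose decimals allow a single array.

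Matrix metalloproteinases had no common direction. The collagenase Mmp13 (gene identifier 17386) was at -1.09 in G37L, 2.13-fold lower, and at 0.47 in DTrsp, -0.01 in A34 and 0.32 in G37H. The gelatinase Mmp9 was highest of the class in A34 at 0.79 and in G37H at 0.69, and was at -0.17 in DTrsp and -0.69 in G37L. The membrane-anchored Mmp14 was at 0.41, -0.07, 0.47 and 0.26 in DTrsp, A34, G37L and G37H, and Mmp24, also anchored in the membrane, at 0.15, -0.88, -0.15 and -0.27. Mmp19 lay between -0.38 and 0.09. Class medians stayed between -0.15 and 0.26.

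Both measured inhibitors were below 0 in DTrsp and G37L. Timp2 was at -0.47, 0.31, -0.75 and 0.10 in DTrsp, A34, G37L and G37H. Timp3, which binds to the matrix itself, was at -0.28, -0.06, -0.65 and -0.09. In G37L, Timp2, Timp3, Mmp13 and Mmp9 were all between -1.09 and -0.65, while Mmp14 was at 0.47, so the values did not divide into proteases on 1 side and inhibitors on the other.

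None of the Adamts proteases was 2-fold apart as deposited. Adamts7 came nearest in DTrsp, at -0.97, and was highest of the class in A34 at 0.75, with 0.24 in G37L and 0.36 in G37H. Adamts13, which cuts von Willebrand factor, was at 0.40 in DTrsp and 0.66 in A34 and at -0.88 in G37L and -0.66 in G37H. Adamts9 was at -0.71 in DTrsp and highest of the class in G37L at 0.40, with 0.17 in A34 and 0.05 in G37H. Adamts16 was at 0.40, 0.36, -0.31 and -0.16. The mean of the 2 Adamts1 probes lay between -0.13 and 0.24.

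Galectins gave both extremes of the members in DTrsp. Lgals1 (gene identifier 16852), a small galectin of mesenchymal and many dividing cells, was at 2.49 in DTrsp, 5.63-fold higher and rank 11 from the top of 9285 genes. In the transgenic livers it was below 0, at -0.80 in A34, -0.13 in G37L and -0.59 in G37H, and in A34 it ranked 106 from the bottom. Lgals3 (gene identifier 16854), a galectin abundant in macrophages, was at -1.41 in DTrsp, 2.65-fold lower and rank 27 from the bottom. Its values in A34, G37L and G37H were 0.19, 0.09 and 0.08, near the median of all genes. The 2 galectins thus lay on opposite sides in DTrsp, and neither was 2-fold apart in a transgenic liver as deposited.

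Macrophage markers lay near the median of all genes in DTrsp, beside the lower Lgals3. Over 25 Kupffer cell and macrophage markers the median was 0.08 there (-0.08 relative to all genes and -0.48 relative to hepatocyte markers). Their range was -0.70 to 1.64, with 0 of 25 at least 2-fold lower. In DTrsp 2 were at least 2-fold higher (8%, against 3.27% of all genes), the iron exporter Slc40a1 at 1.64 and the scavenger receptor Cd163 at 1.02. In A34, G37L and G37H the marker medians were 0.54, 0.61 and 0.48, with 3, 7 and 6 of 25 at least 2-fold higher. These are 12%, 28% and 24%, against 1.40%, 2.51% and 2.78% of all genes. In A34 1 was at least 2-fold lower, the Fc receptor Fcgr1 at -1.55, the marker farthest from 0 there, and in G37L and G37H 0 were. Relative to hepatocyte markers these medians were 0.20, 0.14 and near 0. The highest were Mpeg1 at 1.12 in A34 and 1.60 in G37L and Vsig4 at 1.56 in G37H. Lgals3 was within 0.19 of 0 in these livers. Stellate cell and myofibroblast markers, from cells that can make Lgals1, had 0 of 18 at least 2-fold higher in DTrsp, against 3.27% of all genes. The part of these cells in the galectin values was not tested.

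Lgals4, known from gut epithelium, was at -1.22 in G37L, 2.33-fold lower, and both of its probes were below -1 there. It was at 0.10 in DTrsp, -0.24 in A34 and -0.58 in G37H. In the annotation the probe at -1.43 in G37L lists another transcript beside that of Lgals4, while the probe at -1.01 lists that of Lgals4 alone. Mouse Lgals4 has a close relative, Lgals6, in some strains, so a probe may also read that gene. Lgals9, with 3 probes, was at 0.54 in A34, where all its probes were above 0, and at 0.05, 0.05 and -0.24 in DTrsp, G37L and G37H. Lgals7, a galectin of stratified epithelia, was at -0.78 in DTrsp and at 0.54 and 0.58 in G37L and G37H. Lgals2 was at -0.46, 0.10, -0.65 and -0.48 in DTrsp, A34, G37L and G37H, and Lgals8 at 0.37, 0.27, 0.43 and -0.09.

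The 8 members with several probes show how firmly a gene value can be read. The probes lay on opposite sides of 0 for 3 of the 8, 4, 3 and 6 in DTrsp, A34, G37L and G37H. In G37H these were Adamts1, Col2a1, Col3a1, Col18a1, Col27a1 and Timp3. The widest gap was that of Col2a1 in G37H, with probes at -0.34 and 1.25, followed by Adamts1 in G37H at -0.58 and 0.97. The median gap of the 8 members was 0.34, 0.41, 0.47 and 0.72 in DTrsp, A34, G37L and G37H. Over the 1791 genes with 2 probes it was 0.43, 0.29, 0.31 and 0.30. Of the 8 members ever at least 2-fold apart, 7 had a single probe and could not be checked in this way. The exception was Lgals4, with probes at -1.43 and -1.01 in G37L, though the probe at -1.43 lists another transcript as well. For Col27a1 in G37L, 1 probe was at -1.34 and the other at -0.52, and for Timp3 in G37L they were at -0.93 and -0.37.

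**Figure D3:**
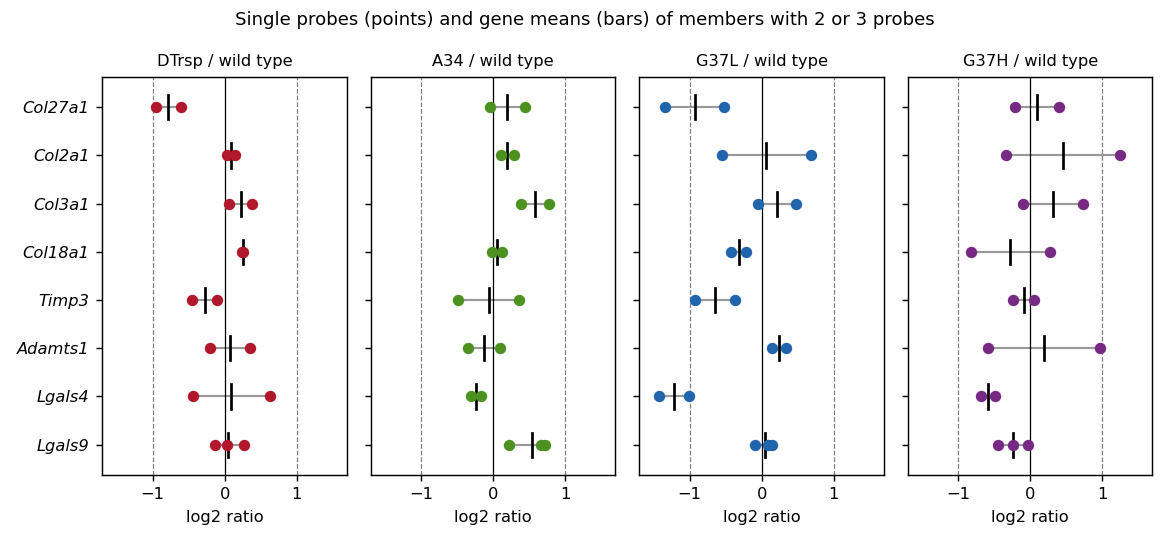
Log2 ratios of the single probes (points) of the 8 members with 2 or 3 probes, with a bar at each gene's mean and a line joining its probes, in a panel for each comparison. Dashed lines mark 2-fold. Probes of Lgals4 lie together in G37L at -1.43 and -1.01, while those of Col2a1 in G37H lie at -0.34 and 1.25.

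The decimals of the averages bear on how many arrays stand behind a value. If each array's ratio was recorded to 4 decimals, an average over 4 arrays can show that step divided by 4, an average over 3 arrays shows it divided by 3, and a single array shows no fraction, although averages can do so by chance. In DTrsp 34% of the 50 member probes showed a division by 3, against 14.0% of all probes, and in A34 28%, against 13.5%, a division that 4 arrays cannot produce. In G37L 56% of member probes had no fraction, against 37.8% of all, and in G37H 42%, against 43.5%. Among the members at least 2-fold apart, Lgals1 in DTrsp had a step divided by 2, Col4a2 a step divided by 4 and Lgals3 a step divided by 3, so each averages at least 2 arrays. In G37L 3 of the 5 probes of these members had no fraction, those of Loxl2, Col5a3 and 1 of Lgals4. In G37H all 3 had none, those of Loxl2, Col5a3 and Col11a2. Each of those 3 values may come from a single array, although an average over 3 arrays can also lack a fraction. Counting only probes with a fraction leaves these 3 out by construction, so its 0 members in G37H add nothing. Among genes of the other lists named with 2-fold values, 1-probe values without a fraction were also found. In G37H these were Crtap, Vcan, Lum, Nid2, Itga2, Klf10, Des, A2m, Ctss and Vsig4. In G37L they were Matn2, Itga9, Id1, Lrat and Thy1. In DTrsp they were A2m, Bsg and Slc40a1, and in A34 Fcgr1.

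For the lists that follow, the shares of all genes at least 2-fold higher were 3.27%, 1.40%, 2.51% and 2.78% in DTrsp, A34, G37L and G37H. The shares lower were 1.62%, 0.452%, 3.96% and 3.10%. Counts of 1 or 2 genes in such short lists are not read as a result about the lists. Few collagen-modifying enzymes were 2-fold apart. Of 14 measured, 1 was at least 2-fold higher in DTrsp, the prolyl hydroxylase subunit P4hb at 1.06, and 0 lower. In A34 none was 2-fold apart. In G37L the procollagen proteinase enhancer Pcolce was at -1.30 and the collagen chaperone Serpinh1 at 0.89, with 1 of 14 at least 2-fold lower and 0 higher. In G37H Crtap, of the prolyl 3-hydroxylation complex, was the 1 gene at least 2-fold higher, at 1.18, with 0 lower. List medians were 0.09, 0.11, 0.12 and 0.06 in DTrsp, A34, G37L and G37H, and relative to all genes -0.07, 0.03, 0.23 and 0.18. In G37L 12 of the 14 lay above the median of all genes, and the list median over its 10 genes with 1 probe was 0.41 as deposited.

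Matrix glycoproteins and proteoglycans had their lowest values in G37H. Of 20, 3 were at least 2-fold lower there (15%, against 3.10% of all genes) and 0 higher: the proteoglycans Vcan at -1.54 and Lum at -1.41 and the basement membrane linker Nid2 at -1.36. These 3 values show no fraction of the 4-decimal step, so each may come from a single array. In G37L 1 of 20 was at least 2-fold lower (5%, against 3.96%), Matn2 at -1.32, also without a fraction. In DTrsp and A34 none was 2-fold apart. Their medians were 0.10, 0.23, 0.05 and 0.01, and relative to all genes -0.06, 0.16, 0.16 and 0.12. Matrix receptors, mostly integrins and syndecans, had medians of 0.37, 0.24, -0.02 and -0.06 over 19 genes (0.21, 0.17, 0.09 and 0.05 relative to all genes), with Itga9 at -1.35 in G37L and Itga2 at -1.11 in G37H the only ones 2-fold apart.

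TGF-beta is the main signal that raises collagen synthesis in stellate cells. Of the 22 genes of its signalling and targets, 1 was at least 2-fold higher in DTrsp, the transducer Smad3 at 1.01, and 1 in A34, the inhibitory Smad6 at 1.02, with 0 lower in both. In G37L 1 was at least 2-fold lower, Id1 at -1.60, and in G37H 2 were, Klf10 and the receptor Tgfbr2, both at -1.02, with 0 higher in both. List medians were 0.07, 0.13, -0.24 and -0.05, and relative to all genes -0.09, 0.06, -0.12 and 0.07.

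Other matrix proteases and inhibitors were led by plasma protease inhibitors. A2m, which traps proteases of all classes, was at -1.38, -0.80, 2.02 and 3.24 in DTrsp, A34, G37L and G37H. The cathepsin Ctss, a protease of macrophages and other antigen-presenting cells, was at 1.37 in G37L and 1.01 in G37H. In A34 the plasmin inhibitor Serpinf2 was at 1.58 and plasminogen, Plg, at 1.22. Of the 10 measured, 2 were at least 2-fold higher in each transgenic liver and 0 lower, and in DTrsp 1 was higher, Bsg at 1.02, and 1 lower. Plg and Serpinf2, plasma proteins made by hepatocytes, were lower in the other comparisons than in A34. Plg was at -0.75, 0.47 and -0.21 in DTrsp, G37L and G37H, and Serpinf2 at -0.32, 0.35 and 0.06.

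In G37L 11 of 18 stellate cell and myofibroblast markers lay below the median of all genes, beside the lower Loxl2, Col5a3 and Mmp13. Below 0 were 14 of 18 (77.8%), against 60.6% of all genes. Those at least 2-fold lower numbered 2, the retinol esterifier Lrat at -1.51 and Thy1 at -1.16. The median of the 18 was -0.37 (-0.26 relative to all genes) and their range -1.51 to 0.26. In G37H 2 of 18 were at least 2-fold lower, Des at -1.45 and Ngfr at -1.16, with a median of -0.05 (0.06 relative). In A34 their median was 0.15, with 0 of 18 2-fold apart. Cholangiocyte markers, 5 measured, had medians of 0.26, 0.46, -0.07 and -0.40, with 0 2-fold apart. The part of these cells in the values of the matrix genes was not tested.

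**Figure D4:**
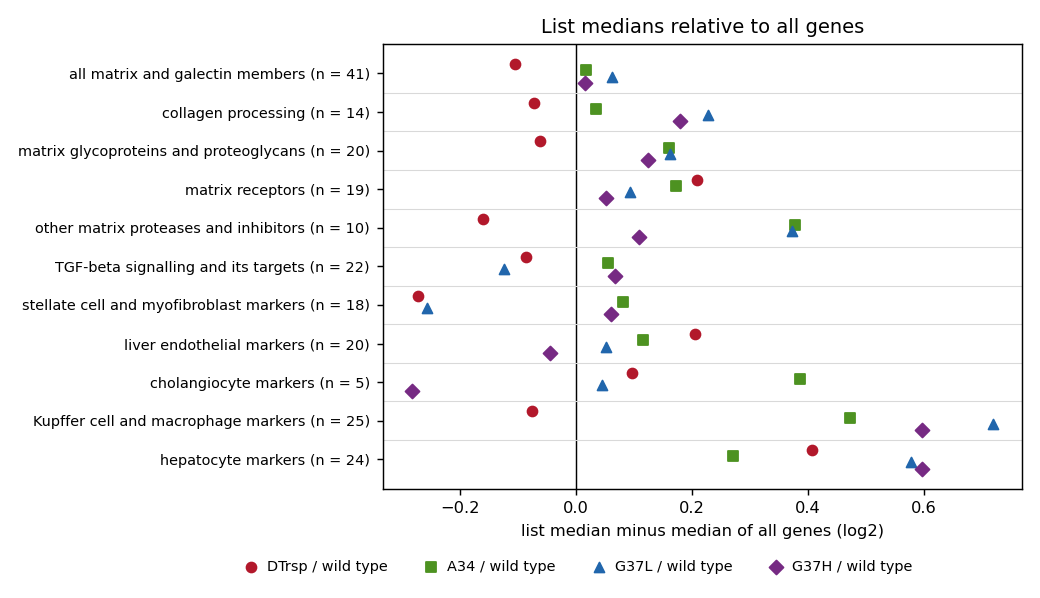
Median log2 ratio of each gene list minus the median of all genes in the same comparison, for the 41 matrix and galectin genes, other matrix lists and cell type markers, with the number of measured genes in brackets. The 41 members lie between -0.11 and 0.06, while macrophage and hepatocyte markers reach 0.72 and 0.60.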

How the data were processed

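Liver RNA of mutant and wild-type littermates was compared on 2-colour oligonucleotide arrays, 1 biological replicate per array, from 15 µg of total RNA, per the labels' protocols. The deposited table holds the authors' average over animals for each comparison, per the labels, as ratios on a scale read here as log2. The logarithm's base, the normalization, any dye swap and any shared wild-type animal are not stated in the labels. Depth does not apply, and the number of arrays limits the precision.

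Of 15478 probes, 13047 had 1 gene in the platform annotation (12984 symbols updated through the gene identifier, 63 kept), 110 had several and 2321 were not listed. Probes of a gene were averaged, giving 9285 genes. The 41 members (50 probes) matched the rule on the annotation's symbols. A gene was counted at 2-fold (log2 of at least 1), with no test. Members, classes and lists were chosen with earlier results of these data known. Members named with values are those at least 2-fold apart in any comparison, the highest and lowest of each class, the type I, III and IV collagens and laminins, and the examples of the rule. Further members are given to account for all 41. From other lists up to 3 genes with the largest absolute values in a comparison were named. The 3 highest stellate cell and myofibroblast markers in DTrsp were added. Decimals were read with a tolerance of 0.02 of a step. Promoter windows came from RefSeq (GRCm38.p6). Counting was tested on simulated data. Python 3.11.15 and pandas 2.3.3 were used.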

Additional observations from a re-analysis of the deposited data

Results flagged for a closer look

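Loxl2 was at least 2-fold lower than wild type in G37L, at -2.16, and at least 2-fold higher in G37H, at 1.12, the only member with 2-fold values of opposite sign in different comparisons. The livers carry 2 and 16 copies of the same altered tRNA gene. The difference was not tested, since each value is a single average from 1 probe, and neither average shows a fraction of the 4-decimal step.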

How the results depend on the processing

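Of 41 members, 2, 0, 0 and 1 were at least 2-fold higher in DTrsp, A34, G37L and G37H, and 1, 0, 4 and 2 at least 2-fold lower. Beside these, a 1.5-fold threshold gave 4, 3, 3 and 4 higher, against 15.6%, 7.60%, 7.45% and 7.30% of all genes, and 8, 2, 12 and 6 lower, against 6.96%, 2.65%, 15.3% and 13.1%. Of the 41 members, 8 are 19.5% and 12 are 29.3%. A 3-fold threshold gave 1, 0, 0 and 0 higher, against 0.657%, 0.237%, 0.657% and 0.549% of all genes. It gave 0, 0, 1 and 0 lower, against 0.162%, 0.0323%, 0.635% and 0.388%. Read as natural logs, the values gave 3, 2, 3 and 2 higher, against 10.2%, 4.76%, 5.51% and 5.77% of all genes, and 7, 2, 8 and 4 lower, against 4.74%, 1.63%, 11.1% and 8.91%. Centred on column medians they gave 2, 0, 2 and 2 higher and 4, 0, 3 and 2 lower, and the member medians moved to -0.106 in DTrsp, 0.0623 in G37L and 0.0154 in G37H. With columns brought to the median absolute deviation of the DTrsp column, A34 had 2 higher and 2 lower and G37H 2 higher. With probes counted singly G37H had 2 higher. With only probes that show a fraction of the 4-decimal step it had 0 higher and 0 lower, a setting that leaves out all its counted members by construction. Shares of all genes under the scaled, single-probe and fraction settings are not given here. The alternatives below were chosen after seeing the data. Centred on hepatocyte markers, 1, 0, 0 and 0 members were higher and 12, 2, 12 and 7 lower, and the medians moved to -0.51, -0.25, -0.52 and -0.58 in DTrsp, A34, G37L and G37H. Without galectins DTrsp had 1 higher and 0 lower of 34, against 3.27% and 1.62% of all genes. The other 92 counts and medians of the members under an alternative stayed within 1.5 times the reported count or within 0.1 (log2) of the reported median, a fixed size chosen after seeing the data, since no spread between animals exists. Medians of classes and lists were less stable. Under column centring or with only 1-probe genes, 85 moved and 67 stayed. With 1-probe genes, fibrillar collagens in G37H moved from -0.20 to -0.86. In DTrsp galectins moved from 0.05 to -0.46 and macrophage markers from 0.08 to 0.33. No animal could be left out, since each value is an average. No paired analysis was possible because each comparison holds 1 averaged value per probe. Signal over background was not used here, so dim probes were not set aside.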
